A study of Mus musculus with 3 samples.

Results

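The GIMAP genes, GTPases of immunity-associated proteins, were followed in regulatory T cells (Tregs) that had been through inflammation. The members were the 8 genes named Gimap1, Gimap3, Gimap4, Gimap5, Gimap6, Gimap7, Gimap8 and Gimap9 in GENCODE M21, of 55536 genes in the deposited gene tables, and each was found as 1 gene row, with 30 transcripts in all. All 8 lay in 1 cluster on mouse chromosome 6 and all 8 passed the filter of a mean count of 10. GIMAP proteins bind guanine nucleotides through a GTPase domain related to that of septins and dynamins, and many sit on intracellular membranes such as those of lysosomes, endoplasmic reticulum and mitochondria. They are made mainly in lymphocytes, and loss of Gimap1 or Gimap5 in mice, or of Gimap5 in rats, depletes peripheral T cells. They have been studied as regulators of the survival and quiescence of resting lymphocytes.

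The cells were primary inflammation-experienced Tregs from a male adult mouse of the strain Foxp3CreERT2 x Rosa26YFP, aged 6 months, in which Cre-ERT2 is expressed from the Foxp3 locus and a YFP reporter stands at Rosa26. Both alleles were shared by every sample, and there was no other group. Polyadenylated RNA was sequenced in 3 libraries that the labels number as technical replicates 1, 2 and 3 of 1 biological replicate, called libraries 1, 2 and 3 here. Differences between them therefore measure only the spread between these libraries, which may be technical, and nothing was measured between animals.

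The libraries held 11829501, 14136139 and 10667765 estimated counts on genes. All 7 genes of a Treg marker list were at 1 TPM (a transcript level scaled for length and library depth) or more in every library, and Foxp3, the factor that defines Tregs, was at 17.96, 14.25 and 16.01 TPM in libraries 1, 2 and 3. The libraries also held RNA of other blood cell types in unequal amounts. Summed B cell markers were at 460.5, 705.1 and 887.9 TPM and summed erythroid markers at 3.81, 44.3 and 259.5 TPM in libraries 1, 2 and 3. Summed NK cell markers were at 10.02, 37.59 and 12.55 TPM, and summed macrophage or monocyte markers at 9.79, 52.9 and 23.1 TPM, so both were highest in library 2. At 1 TPM or more in every library were 4 of 6 B cell, 2 of 4 erythroid, 2 of 4 NK cell and 2 of 5 macrophage or monocyte markers, and none of these markers was at 0 in all libraries.

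The nucleotide-binding G1 motif (glycine, any 4 residues, glycine, lysine, then serine or threonine) is the phosphate-binding element of the GTPase domain. Its coding sequence is shown for the leading coding transcript of each member. For Gimap8 the further copies at residues 291 and 482, which only its longer transcripts Gimap8-202 and Gimap8-203 encode, are shown as well. Capitals mark the 24 bases that encode the motif, with 15 coding bases on either side. The sequences were read from the GENCODE M21 transcripts on mm10 in the direction of transcription.
Gimap4 (chr6:48690406-48690459, plus strand): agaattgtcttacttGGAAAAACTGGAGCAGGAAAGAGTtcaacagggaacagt
Gimap3 (chr6:48765872-48765925, minus strand): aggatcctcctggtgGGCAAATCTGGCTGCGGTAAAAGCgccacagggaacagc
Gimap5 (chr6:48752579-48752632, plus strand): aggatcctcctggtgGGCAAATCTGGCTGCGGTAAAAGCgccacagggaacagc
Gimap6 (chr6:48702735-48702788, minus strand): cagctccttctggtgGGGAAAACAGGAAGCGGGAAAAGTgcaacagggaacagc
Gimap7 (chr6:48723509-48723562, plus strand): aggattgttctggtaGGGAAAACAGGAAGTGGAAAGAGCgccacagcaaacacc
Gimap1 (chr6:48742537-48742590, plus strand): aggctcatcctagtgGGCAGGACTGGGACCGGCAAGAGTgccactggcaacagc
Gimap9 (chr6:48677508-48677561, plus strand): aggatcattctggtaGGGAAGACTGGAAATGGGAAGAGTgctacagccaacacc
Gimap8, motif at residue 55 (chr6:48650241-48650294, plus strand): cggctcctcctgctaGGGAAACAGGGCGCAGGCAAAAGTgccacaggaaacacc
Gimap8, motif at residue 291 (chr6:48656104-48656157, plus strand): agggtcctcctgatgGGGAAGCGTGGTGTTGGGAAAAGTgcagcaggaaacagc
Gimap8, motif at residue 482 (chr6:48658731-48658784, plus strand): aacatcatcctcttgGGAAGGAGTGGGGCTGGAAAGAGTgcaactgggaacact

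Gimap3 and Gimap5 carried the same letters over this whole stretch. Their translated coding sequences shared 249 of 301 aligned residues (82.7%), against 54.2% for Gimap7 and Gimap9, the next pair, and a median of 36.8% over all 28 pairs of members. The leading coding transcripts encoded 291 residues for Gimap9 to 349 for Gimap8. Gimap8 was the only member with coding transcripts that hold 3 copies of the motif, in a protein of 688 residues. The longest run of identical coding letters between Gimap3 (chr6:48765681-48765820, minus strand) and Gimap5 (chr6:48752684-48752823, plus strand) was 140 bases, against at most 17 in any other pair. That run is shown because a read within it cannot be placed in 1 gene by its letters.
Gimap3 and Gimap5, shared run: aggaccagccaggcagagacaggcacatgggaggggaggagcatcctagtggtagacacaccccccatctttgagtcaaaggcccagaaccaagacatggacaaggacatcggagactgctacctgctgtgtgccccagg

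All 8 members were expressed in all 3 libraries, over a 14.3-fold range of mean TPM. Together they took 0.519%, 0.575% and 0.513% of all gene counts in libraries 1, 2 and 3 (95% Wilson intervals 0.515% to 0.523%, 0.571% to 0.579% and 0.509% to 0.518%, counting error only). Their summed level was 4249, 4709 and 4148 TPM in libraries 1, 2 and 3. Gimap4 alone made up 34.9%, 35.3% and 32.3% of that sum, and Gimap4, Gimap3 and Gimap6 together 70.6%, 71.1% and 73.1%. The median mean level of the members was 399 TPM, against 12.1 TPM over the 13970 genes that passed the filter. In bulk RNA, fewer cells of a type and less RNA per cell cannot be told apart.

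**Figure D1:**
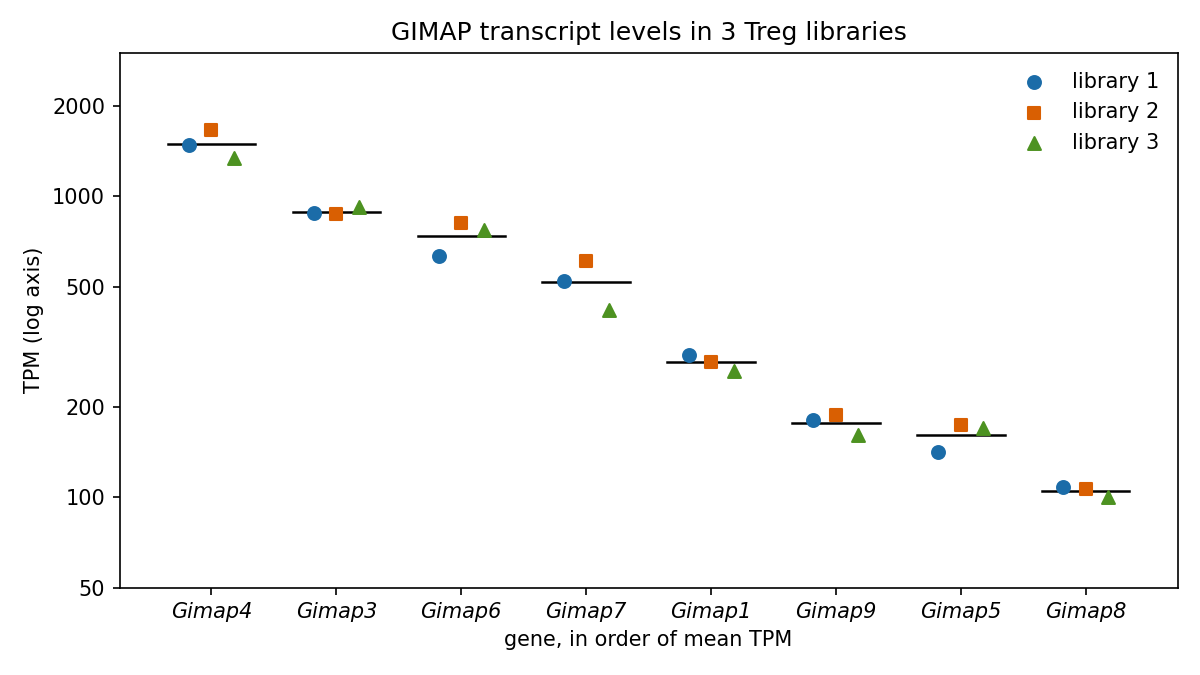
Level of each GIMAP gene in TPM on a log axis, in order of mean TPM, with 1 point per library and a bar at the mean of the 3 libraries. Gimap4 stands highest at a mean of 1495 TPM and Gimap8 lowest at 104.9 TPM, and the points of Gimap9 and Gimap5 overlap.

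Gimap4, which in mice influences how fast T cells die once apoptosis has been set off, was the most abundant member. It was at 1484, 1661 and 1340 TPM in libraries 1, 2 and 3 (mean 1495 ± 161, SD, n = 3 libraries) and ranked 92 among all genes by mean TPM. Library 2 was highest and library 3 lowest. The gene spans chr6:48684549-48692060 on the plus strand.

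Gimap3, a membrane-anchored member that works together with Gimap5 to keep T cell numbers up in mice and is a pseudogene in humans, came next. It was at 880.4, 871.6 and 920.3 TPM in libraries 1, 2 and 3 (890.8 ± 25.9, n = 3) and library 3 was slightly above the others. It spans chr6:48764464-48770851 on the minus strand, at the far end of the cluster.

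Gimap6, whose protein binds the ATG8 protein GABARAPL2 and has been tied to autophagy in T cells, was at 635.9, 814.5 and 772.9 TPM in libraries 1, 2 and 3 (741.1 ± 93.5, n = 3). Library 1 was below the others. Gimap7, whose human protein forms dimers that hydrolyse GTP, was at 523.8, 611.7 and 419.0 TPM (518.2 ± 96.5, n = 3). It was the member with the widest spread relative to its mean, with library 2 highest and library 3 lowest. Gimap6 spans chr6:48701582-48708225 on the minus strand and Gimap7 chr6:48718621-48724636 on the plus strand.

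Gimap1, which mature B and T cells of mice need in order to persist, was at 296.3, 281.7 and 263.6 TPM in libraries 1, 2 and 3 (280.6 ± 16.4, n = 3; chr6:48739054-48743795, plus strand). Gimap9 was at 180.8, 188.0 and 161.4 TPM (176.8 ± 13.7, n = 3; chr6:48676129-48679114, plus strand). Gimap5, the lysosomal member whose loss gives lymphopenia in rats and mice, was at 140.7, 173.1 and 170.1 TPM (161.3 ± 17.9, n = 3; chr6:48746197-48754210, plus strand). The member best known for T cell survival was thus the seventh of 8 by level, and its range overlapped that of Gimap9.

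Gimap8, the multi-domain member, was lowest at 107.7, 106.6 and 100.3 TPM in libraries 1, 2 and 3 (104.9 ± 3.95, n = 3; chr6:48647234-48660875, plus strand). Even so it ranked 1436 of 55536 genes by mean TPM, so every member lay among the more abundant genes of these cells.

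The 7 pairs of neighbours in this order were set against each other in log2(TPM + 0.1), library by library. The difference was 0.74 ± 0.20 for Gimap4 minus Gimap3, 0.27 ± 0.19 for Gimap3 minus Gimap6 and 0.53 ± 0.32 for Gimap6 minus Gimap7 (mean ± SD, n = 3 libraries). It was 0.87 ± 0.23 for Gimap7 minus Gimap1, 0.67 ± 0.07 for Gimap1 minus Gimap9 and 0.62 ± 0.20 for Gimap5 minus Gimap8. These 6 differences had the same sign in 3 of 3 libraries and exceeded their SD. Their exact two-sided sign-flip permutation p was 0.25, the smallest that 3 libraries can give. Gimap9 minus Gimap5 was 0.36, 0.12 and -0.07 in libraries 1, 2 and 3, so the sign was not shared (exact sign-flip permutation p = 0.5), and these neighbours did not differ beyond their spread. The place of Gimap5 above Gimap8 depended on its noncoding transcripts, since Gimap5 minus Gimap8 was -0.74 with protein-coding transcripts only.

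**Figure D2:**
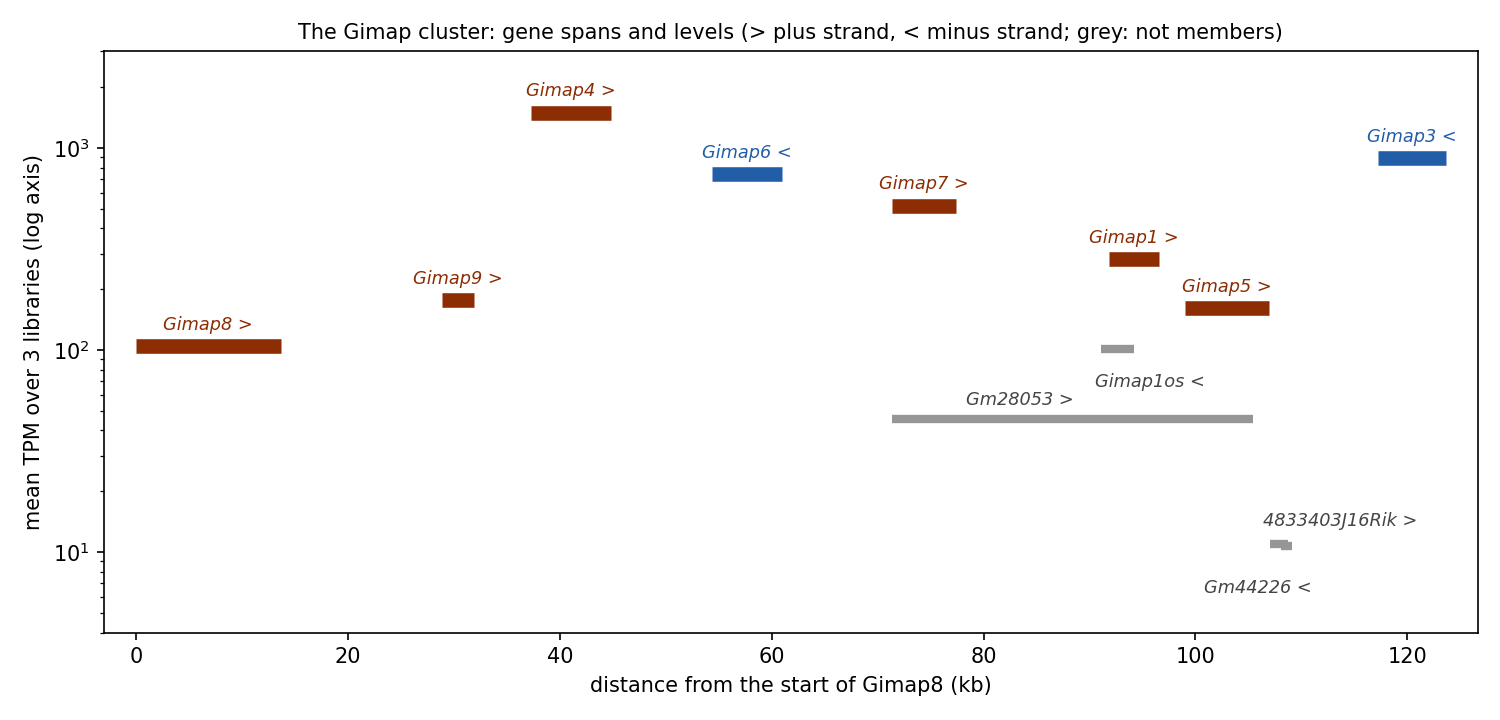
Gene spans in the Gimap cluster by distance from the start of Gimap8 in kb, each drawn at its mean TPM over 3 libraries on a log axis, with plus-strand members in brown, minus-strand members in blue and other genes in grey. The most abundant members, Gimap4 and Gimap3, stand apart in the cluster, and a pseudogene listed at 0 TPM is not drawn.

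Levels did not rise or fall steadily along the whole cluster, and no test of position was made. Read from Gimap8 to Gimap3 along the chromosome, mean TPM was 104.9, 176.8, 1495, 741.1, 518.2, 280.6, 161.3 and 890.8. The mean fell at each step from Gimap4 to Gimap5, with low levels before Gimap4 and a high level at Gimap3. Gimap4 and Gimap6, which follow each other on opposite strands, were both among the 3 most abundant. The protein-coding genes that flank the cluster were low beside the members, with AI854703 at 0.86, 0.32 and 0.94 TPM and Tmem176b, a membrane protein gene, at 19.09, 22.35 and 49.10 TPM in libraries 1, 2 and 3.

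Other annotated genes inside the cluster overlapped some members. Gm28053, on the plus strand, runs from Gimap7 through Gimap1 into Gimap5 (chr6:48718607-48752644) and was listed at 43.94, 47.67 and 44.78 TPM. Gimap1os, on the minus strand over the start of Gimap1, was listed at 93.82, 108.8 and 101.6 TPM. The strand setting of the counting is not given in the sources used here, so reads of Gimap1 and of Gimap1os cannot be told apart if strand was not used. The long noncoding genes Gm44226 and 4833403J16Rik lay beyond Gimap5 at means of 10.9 and 10.7 TPM, and the pseudogene Gm44262 was listed at 0 in every library.

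How far reads could be shared was measured by cutting every member transcript into 50-base windows and looking for each in all other genes' transcripts. Gimap4, Gimap8 and Gimap9 had no shared window on the same strand, and Gimap6 had 2 of 3537. Gimap3 shared 206 of 2528 windows (8.15%), 190 of them with Gimap5. Gimap5 shared 287 of 4195 (6.84%), with 105 matching Gm28053, and Gimap1 shared 185 of 3116 (5.94%), with 149 matching Gm28053. On the opposite strand, 1011 Gimap1 windows matched Gimap1os.

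The deposited posterior SD of a count, the model's own uncertainty in placing reads, followed the same genes. It was 0.812%, 0.694% and 0.81% of the count for Gimap5 and 0.501%, 0.481% and 0.539% for Gimap1 in libraries 1, 2 and 3. For Gimap3 it was at most 0.0623%. The 5.52-fold higher mean TPM of Gimap3 than of Gimap5 was therefore large beside the stated uncertainty, but that SD describes the model, and a bias shared by all libraries was not tested. Gm28053 itself was less certain, with an SD of 8.09%, 7.91% and 8.45% of its count.

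Transcripts without an annotated protein carried much of Gimap5 and little of the other members. Gimap5-201, its only protein-coding transcript, was at 64.85, 62.87 and 60.51 TPM in libraries 1, 2 and 3 (62.7 ± 2.17, n = 3). That was 46.1%, 36.3% and 35.6% of the gene's TPM. The processed transcripts Gimap5-202 and Gimap5-203 together were at 73.45, 106.9 and 106.4 TPM. The coding transcript was thus nearly level across libraries, while the noncoding ones were lowest in library 1, as was the gene's total.

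The noncoding Gimap5 transcripts are short, at 464 and 606 bases against 1953 bases for the coding one, which raises their TPM for a given count. By estimated counts the coding share of Gimap5 was 75.04%, 67.31% and 66.08% in libraries 1, 2 and 3. Reads that fit several transcripts of a gene are divided by the model, so these shares are estimates. With protein-coding transcripts only, Gimap5 fell below Gimap8 in the order of levels, at a mean of 62.7 TPM against 104.9 TPM.

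**Figure D3:**
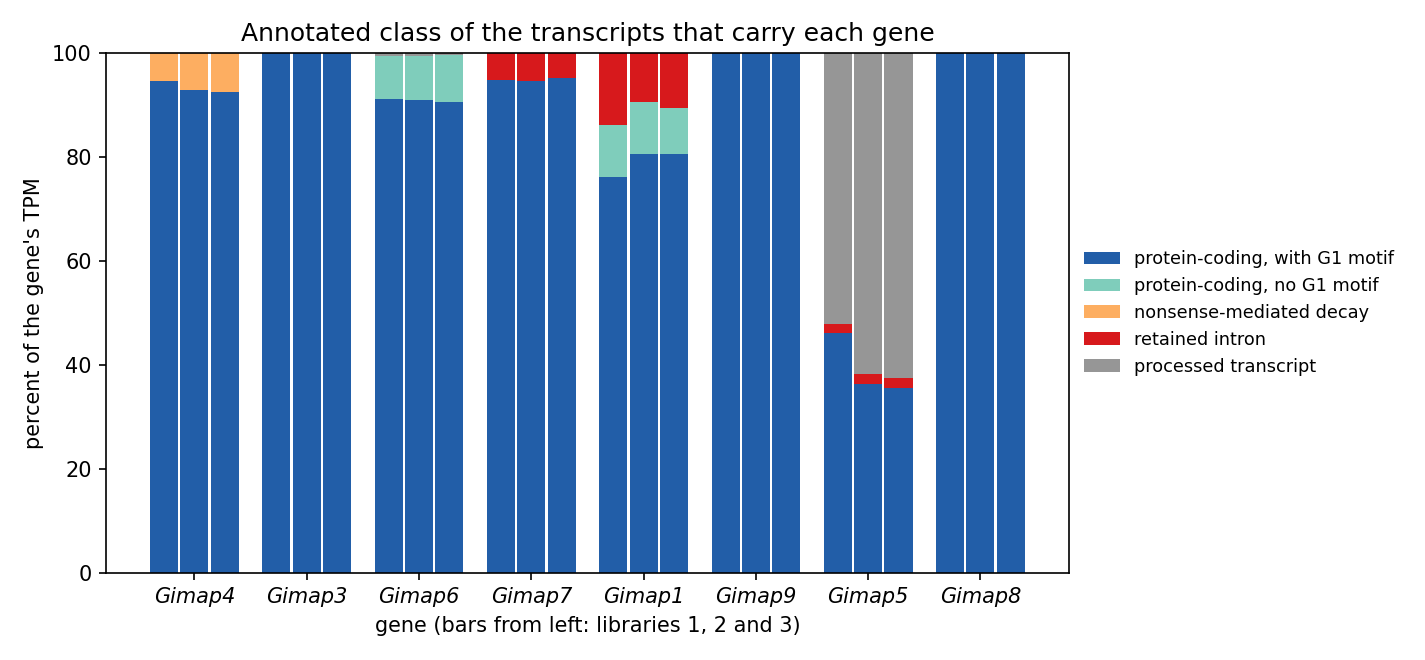
Percent of each gene's TPM by annotated class of its transcripts, with protein-coding transcripts split by whether they encode the G1 motif, and 1 bar for each of libraries 1, 2 and 3 from left to right. Gimap5 is the only gene whose noncoding transcripts take most of the TPM, at a mean of 58.8% for its processed transcripts.

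The other members were carried almost wholly by protein-coding transcripts. These took 100% of the TPM of Gimap3, Gimap8 and Gimap9, and means of 99.5% for Gimap6, 94.9% for Gimap7, 93.3% for Gimap4 and 88.7% for Gimap1. The rest of Gimap1 and Gimap7 was annotated as retained introns, at 11.3% and 5.14%. The rest of Gimap4 was the nonsense-mediated decay transcript Gimap4-206, at 5.31%, 7.18% and 7.50% in libraries 1, 2 and 3.

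Coding transcripts also differed in the length of protein they encode. Gimap4-202, which encodes 328 residues, took 72.5%, 74.0% and 66.6% of the Gimap4 TPM in libraries 1, 2 and 3. Most of the remainder encoded shortened proteins, among them Gimap4-204 with 58 residues at 10.4%, 7.64% and 11.2%. Gimap4-204 keeps the G1 motif, so a coding transcript with the motif need not encode a whole GTPase domain.

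Gimap8 was divided between short and long forms. Gimap8-201, which encodes 349 residues and 1 G1 motif, was at 62.73, 62.19 and 56.70 TPM in libraries 1, 2 and 3 (60.5 ± 3.34, n = 3). Gimap8-202 and Gimap8-203, which encode 688 residues and 3 G1 motifs, together were at 44.94, 44.38 and 43.64 TPM (44.3 ± 0.65, n = 3). The short form was higher in 3 of 3 libraries and took a mean of 57.7 ± 1.04% of the gene's TPM.

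As a share of the gene's own TPM, counting only protein-coding transcripts that encode the motif lowered Gimap6, Gimap1 and Gimap5 the most. Such transcripts took a mean of 90.9% of Gimap6, 79.1% of Gimap1 and 39.3% of Gimap5. In Gimap6 the motif lies at residue 110 of Gimap6-201, and the shorter coding transcripts Gimap6-202 and Gimap6-203 do not encode it.

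Spread between the libraries was set against counting noise for each of the 13970 genes, with a Poisson chi-square test and Benjamini-Hochberg adjustment. By that test 7 of 8 members differed at an adjusted p of 0.05, where 45.7% of all genes did and 71.6% of those counted at least 1000 times on average, the depth of all members. The median ratio of highest to lowest library was 1.16 over the members, against 1.14 over genes of that depth. A ratio of the size of the members' median was thus common among genes as deeply counted, while Gimap7, Gimap4 and Gimap6 had wider ratios. The median chi-square per degree of freedom was 13.4 over the members, against 8.80 over genes of that depth.

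Gimap7 had the widest ratio. It was at 486.2, 581.4 and 380.7 CPM (counts scaled to library depth, TMM-adjusted) in libraries 1, 2 and 3, a 1.53-fold range (chi-square 251.4 per degree of freedom, adjusted p = 1.94e-107). Gimap4 was at 1742, 2037 and 1496 CPM, a 1.36-fold range (adjusted p = 5.56e-219). Both were highest in library 2 and lowest in library 3.

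Gimap6 was at 763.3, 995.8 and 907.3 CPM in libraries 1, 2 and 3, a 1.31-fold range with library 1 lowest (adjusted p = 1.64e-82). Gimap9, Gimap1, Gimap8 and Gimap5 differed by 1.11 to 1.19-fold, with adjusted p of 7.7e-06, 1.46e-05, 0.000293 and 0.0191 in that order. Gimap3 was at 1395, 1421 and 1434 CPM, a 1.03-fold range that missed the threshold (adjusted p = 0.0859). Scaled by total gene counts in place of TMM, Gimap3 passed the threshold (adjusted p = 7.81e-09) and Gimap5 and Gimap8 did not (adjusted p = 0.06 and 0.0973). Without library 3, Gimap1, Gimap8 and Gimap9 no longer passed (adjusted p = 0.618, 0.611 and 0.159 in the chi-square test), and without library 1 or library 2 Gimap5 did not (adjusted p = 0.184 and 0.452).

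**Figure D4:**
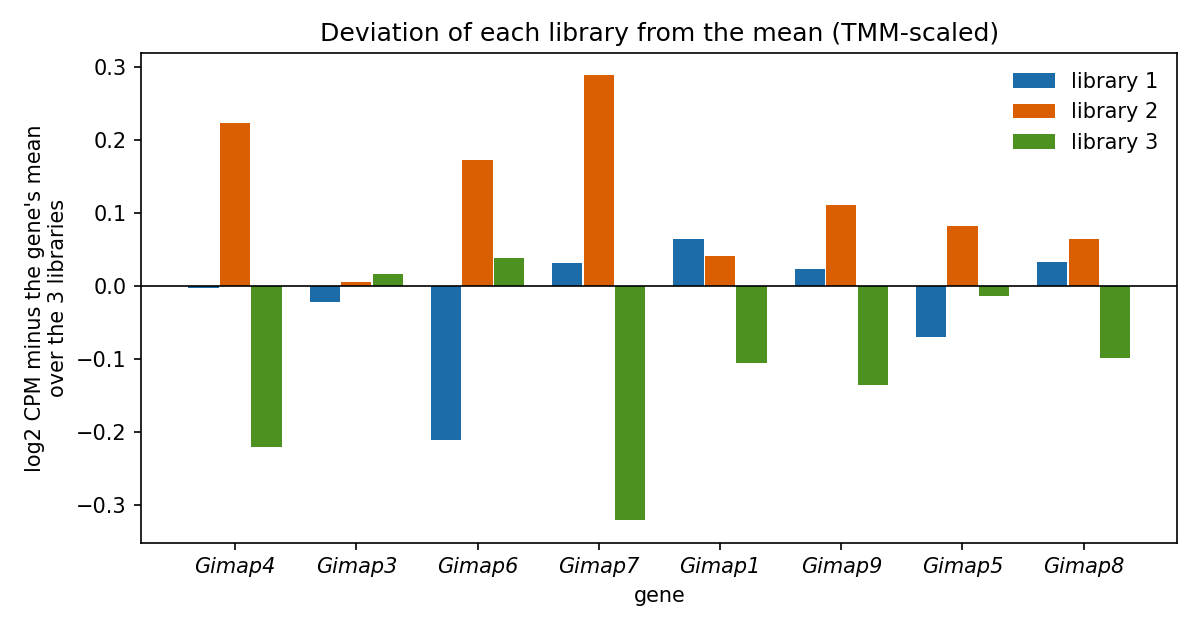
Difference of each library's log2 CPM, TMM-scaled, from the gene's mean over the 3 libraries, for each GIMAP gene in order of mean TPM. Library 2 lies above the mean for 8 of 8 members and library 3 below it for 6 of 8 (7 of 8 and 5 of 8 when scaled by total counts), with the widest deviations in Gimap7, Gimap4 and Gimap6.

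Of the 7 members that differed, 6 were highest in library 2 and 1 in library 1, while 5 were lowest in library 3 and 2 in library 1. Among genes with mean counts of at least 1000 that differed, 42.1% were highest in library 2 and 61.8% lowest in library 3. The summed NK cell and macrophage or monocyte markers were also highest in library 2. Most of the NK sum was Prf1, a cytotoxic granule gene, at 7.49, 25.16 and 6.73 TPM in libraries 1, 2 and 3, and Tyrobp, an adaptor gene that myeloid cells also express, at 1.5, 11.91 and 3.98 TPM. Ncr1 and Klrb1c, at most at 0.47 and 1.67 TPM, were not highest in library 2, nor were the macrophage markers Adgre1 and Itgam by TPM. Summed B cell, erythroid and CD8 T cell markers were highest in library 3, the last at 5.88, 12.42 and 15.21 TPM in libraries 1, 2 and 3. Summed plasma cell markers were at 40.47, 55.53 and 52.74 TPM, although Jchain among them was highest in library 3. The part of these cells in the members' differences was not tested. Endothelial cells also make GIMAP proteins, and 1 of their 5 markers was at 1 TPM or more, Pecam1, at 35.33 to 41.09 TPM. The others, Cdh5, Emcn and Kdr, were at most at 0.39, 0.22 and 0.1 TPM, and Tek was listed at 0 in every library. The part of endothelial RNA was not tested either.

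When the common spread of all genes between these libraries (edgeR common dispersion 0.0285, a coefficient of variation of 16.9%) was added to the counting variance, none of the 8 members differed, at adjusted or unadjusted p of 0.05. Under that fit 3.29% of all genes still did. The chi-square per degree of freedom of Gimap7, the highest of the members, was then 1.48 (unadjusted p = 0.228 from the fit over all genes). By estimated counts with TMM scaling, the differences of 7 of 8 members were therefore larger than Poisson counting noise. None of the 8 was separated from this common spread. That spread was fitted on these same libraries and over all genes past the filter, so it need not be that of deeply counted genes. Genes counted at least 1000 times on average had a median ratio of highest to lowest library of 1.14. Gimap7, Gimap4 and Gimap6 were above it at 1.53, 1.36 and 1.31, and whether they exceed the spread at that depth was not tested.

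The deposited whole-number counts, a separate table on GENCODE M4, gave lower values for every member, and the lowest shares for the most abundant. Gimap4 had 2236, 2270 and 2169 whole-number counts against 20497, 28116 and 16441 estimated counts in libraries 1, 2 and 3, or 10.9%, 8.07% and 13.2%. Gimap3 had 1473, 1520 and 1453, or 8.97%, 7.75% and 9.22% of its estimated counts. Gimap9, at a lower level, kept the largest share of the members, 47.1%, 44.3% and 51.1%, while Gimap5, with the lowest counts, kept 28.3%, 25.4% and 25.8%, so the share did not simply follow the level.

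The highest and lowest members were 13.8, 14.5 and 11.4-fold apart by estimated counts in libraries 1, 2 and 3, and 5.30, 4.60 and 5.80-fold apart by whole-number counts. Over all genes shared by the tables, abundant ones likewise kept less of their estimated count. The median whole-number count was 6.81% of the estimated count among 142 genes with a mean estimated count of 10000 or more, and 44.2% among 6043 genes from 100 to 1000. How the whole-number counts were made is not given in the sources used here, and the cause of the gap was not tested.

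**Figure D5:**
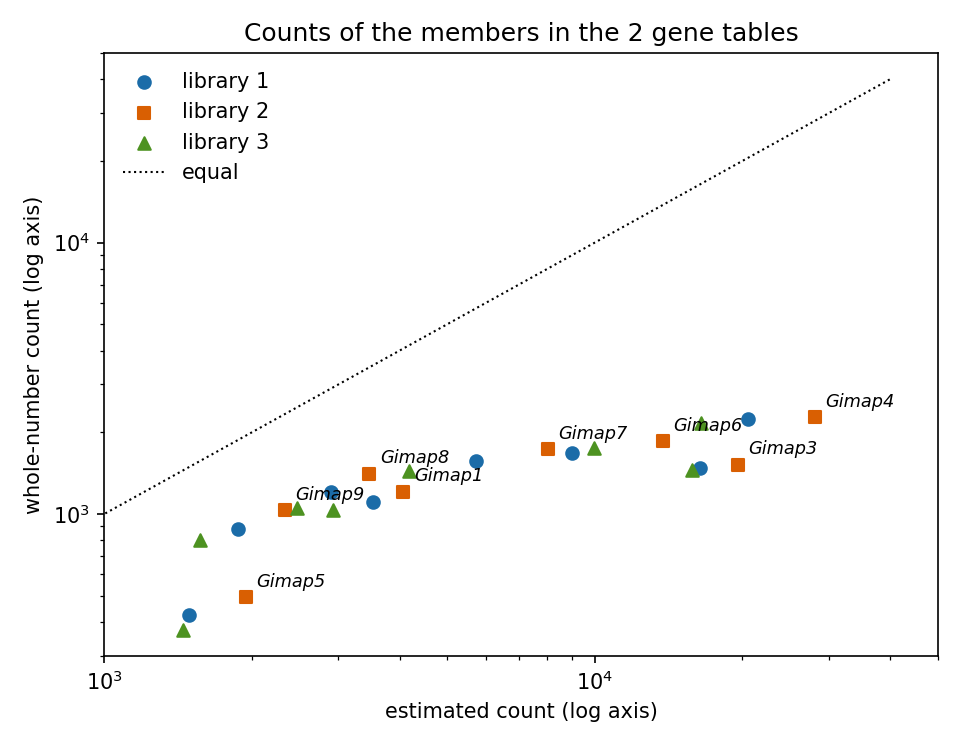
Whole-number count against estimated count of each GIMAP gene in each library, both on log axes, with the dotted line at equal counts. All points lie below the line, and those of Gimap4 and Gimap3 lie farthest below it.

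The direction of several differences depended on the table. In whole-number counts Gimap4 was highest in library 3 and lowest in library 2, at 748.3, 670.4 and 793.1 CPM in libraries 1, 2 and 3. Gimap6, at 562.5, 546.3 and 641.7 CPM, was also lowest in library 2. Gimap7, the member with the widest ratio by estimated counts, was at 525.1, 511.8 and 526.9 CPM, again lowest in library 2, and Gimap1 was at 371.1, 355.9 and 378.4 CPM, with library 3 no longer lowest. In the chi-square test on that table Gimap3, Gimap4 and Gimap6 passed the threshold (adjusted p = 0.000451, 2.55e-06 and 0.000159) and the other 5 members did not, with Gimap7 at an adjusted p of 0.682. The higher CPM of Gimap4, Gimap6 and Gimap7 in library 2 thus depended on the table used. A low library 2 in whole-number CPM was not particular to members. Cd3e was at 411.3, 367.1 and 450.8 CPM and Trac at 352.0, 327.5 and 396.0 CPM in libraries 1, 2 and 3. Cd3g and Tigit were also lowest in library 2, while Ets1 was lowest in library 3. The share over all abundant genes was not counted. Before scaling to depth, the whole-number counts of Gimap4, Gimap6 and Gimap7 were highest in library 2. They were 1681, 1850 and 1755 for Gimap6 and 1569, 1733 and 1441 for Gimap7 in libraries 1, 2 and 3. Library 2 also held the most whole-number counts, with totals of 2988262, 3386154 and 2734873 in libraries 1, 2 and 3. Unscaled counts therefore do not separate level from depth. Gm28053 had 1 whole-number count in each library against 162, 197 and 146 estimated counts.

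Genes whose proteins work with GIMAPs, or that mark the same cell state, were read from lists. Of 12 ATG8 and autophagy genes, 12 were at 1 TPM or more in all libraries and 4 of 12 differed between libraries, with the background at 45.7%. Gabarapl2, the ATG8 partner of Gimap6, was at 233.6, 227.8 and 229.1 TPM in libraries 1, 2 and 3. That range was narrower than the range of Gimap6, but the genes were not tested against each other. The related Map1lc3b and Gabarap were at means of 366.2 ± 4.79 and 312.8 ± 18.7 TPM, and Becn1, an initiator of autophagy, at 67.0 ± 2.19 TPM.

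Of 13 BCL2 family genes, regulators of apoptosis of which several have been reported to bind GIMAP proteins, 12 were detected and 8 of 13 differed between libraries, against 45.7% of all genes tested. Bcl2, which protects resting lymphocytes, was at 13.66, 18.03 and 23.25 TPM in libraries 1, 2 and 3, lowest in library 1 and highest in library 3. Bcl2l1, which encodes the protective BCL-XL, was at 59.32, 51.32 and 50.31 TPM. The most abundant of the list were the activation-linked survival genes Bcl2a1b (311.7 ± 20.95 TPM) and Bcl2a1d (196.7 ± 24.7 TPM), which are close copies of each other and so uncertain, and Bax, which drives apoptosis (138.1 ± 5.41 TPM), and Bcl2l1. The gene below the limit was Bbc3, a death-inducing member named after its value was seen, at a mean of 0.983 TPM.

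Of 9 FOXO factors and FOXO target genes of resting lymphocytes, 9 were detected and 7 of 9 differed between libraries, against 45.7% of all genes tested. The factors Foxo1 and Foxo3 were at 13.6 ± 1.08 and 5.73 ± 0.79 TPM. Among their targets were the IL-7 receptor gene Il7r at 97.45, 73.10 and 134.3 TPM and the egress receptor S1pr1 at 143.2, 129.1 and 106.0 TPM in libraries 1, 2 and 3. Klf2, a transcription factor of resting T cells, was at 18.37, 19.34 and 15.81 TPM.

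Of 12 quiescence genes of resting lymphocytes, 12 were detected and 8 of 12 differed between libraries, against 45.7% of all genes tested and 71.6% of those counted at least 1000 times on average. Ets1 and Slfn2 were at 682.2 ± 23.4 and 653.3 ± 10.6 TPM, near the level of Gimap6. Btg2 was at 137.6 ± 5.33 TPM, and Btg1 at 103.1, 105.7 and 164.0 TPM in libraries 1, 2 and 3. Gsk3b, a kinase whose activity has been linked to Gimap5 in mouse T cells, was at 49.0 ± 2.80 TPM. Of 12 Treg identity genes, 12 were detected and 11 of 12 differed, against the same shares, with Trac at 2910 ± 86.3, Cd3g at 1481 ± 84.6, Cd3e at 1119 ± 9.75 and Tigit at 684.5 ± 25.3 TPM. Gimap4, at 1495 TPM, was thus at the level of Cd3g, a subunit of the T cell receptor complex.

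The 5 other genes whose profile over the libraries was closest to that of the summed members were Cib1, Iigp1, Ssna1, Nudt21 and Nop58. Their root mean square difference in log2 CPM deviation was 0.0019 to 0.0106 over 3 libraries, among 1500 genes with a mean of 100 TPM or more. With 3 libraries this likeness is weak as a description, since 782 of the 1500 (52.1%) lay within 0.1 of the members' profile.

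Promoter windows of the members, 250 bases before to 50 after a start site, were taken from RefSeq on GRCm38.p6, with 9 windows for the 8 members because Gimap8 has a pair. The RUNX motif TGTGGT was in the windows of Gimap1, Gimap4 and Gimap7 on either strand, and in 16.8% of all 32851 windows. The ETS motif CGGAAG was in those of Gimap1, Gimap6 and Gimap8 (16.9% of all), and the STAT motif TTCNNNGAA in those of Gimap3, Gimap6, Gimap7 and Gimap8 (8.3% of all). The forkhead motif GTAAACA was in that of Gimap3 alone (3.65% of all). The GC box GGGCGG was in Gimap7 and Gimap9 (35.7% of all) and TATAAA in Gimap6 (13.6% of all). None of these 6 motifs was found in the Gimap5 window.

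The bases upstream of Gimap3 and Gimap5 are shown because these members were the most alike, at 82.7% of aligned residues, and differed 5.52-fold in mean TPM. That fold is over all transcripts. With protein-coding transcripts only, the means were 890.8 TPM for Gimap3 and 62.7 TPM for Gimap5. Capitals mark the forkhead match and, at the right end of Gimap3, the first part of a STAT match that runs across the start site. A match is only a match of letters.
Gimap3 (chr6:48770852-48771101, minus strand): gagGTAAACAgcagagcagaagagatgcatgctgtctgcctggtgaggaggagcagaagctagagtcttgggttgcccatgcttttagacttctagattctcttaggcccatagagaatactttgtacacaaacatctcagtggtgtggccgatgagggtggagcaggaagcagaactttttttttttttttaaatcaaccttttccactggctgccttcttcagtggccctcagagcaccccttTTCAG
Gimap5 (chr6:48745947-48746196, plus strand): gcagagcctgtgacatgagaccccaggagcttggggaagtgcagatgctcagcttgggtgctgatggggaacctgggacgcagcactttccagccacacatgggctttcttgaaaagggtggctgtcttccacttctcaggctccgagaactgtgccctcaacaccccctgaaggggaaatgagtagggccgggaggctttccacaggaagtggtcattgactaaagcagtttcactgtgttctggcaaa
The Gimap3 window had 48.0% GC and 2 CpG, and the Gimap5 window 55.7% GC and 4 CpG, against medians of 52.7% and 7 CpG over all windows. Of the 9 member windows only that of Gimap9, with 8 CpG, was above the median number of CpG.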

How the data were processed

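The authors deposited 3 tables per library. The first holds estimated counts per gene on mm10 and GENCODE M21, with reads that fit several places shared by a model, in the layout RSEM writes, per the file headers and deposited descriptions. Its deposited TPM column was derived from count and effective length, and its posterior SD of a count, used here as a signal in reads, is as deposited. A deposited transcript table adds the percent of a gene's TPM taken by each transcript. The third holds whole-number counts for 22457 genes on GENCODE M4, as deposited. For the aligner, versions, read length, strand setting and handling of duplicates, no statement is given in the sources used.

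The members and lists were chosen with earlier results of these data known. Of 81881 entries, 26345 that are no annotated gene (0.286%, 0.235% and 0.26% of counts in libraries 1, 2 and 3) were left out. Estimated counts were rounded. The quasi-likelihood test of edgeR compares groups, so none was possible with 1 group. Instead, a Poisson chi-square test on TMM-adjusted library sizes (edgeR 4.0.16, R 4.3.3) was made for every gene whose counts averaged at least 10, which were 13970 genes, with Benjamini-Hochberg adjustment at 0.05. The edgeR common dispersion, DESeq2 1.42.0 size factors and other settings served as alternatives. TMM factors were 0.994, 0.976 and 1.03. P-values measure only the spread between these libraries. The test was checked on simulated data. Levels between genes were compared per length, as log2(TPM + 0.1), which understates differences of low genes. Coding sequences and 50-base windows came from the GENCODE M21 transcripts. Identities are from global alignment (Biopython 1.88). Intervals cover counting error only, since PCR copies are not independent. Named genes are the members, the genes between them and beside the cluster, the most abundant of each list (up to 4), 8 known companions of GIMAP biology, and the 5 genes with the closest profile. Cell type markers come from lists by cell type. Not every gene that these rules name is reported here.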

Additional observations from a re-analysis of the deposited data

How the results depend on the processing

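DESeq2 size factors, no filter or a mean count of 50 in place of 10, the posterior SD added to the variance, a pseudocount of 1 in place of 0.1 and a detection limit of 0.5 TPM left every member result they were run on with its direction and its side of the threshold. The count of 7 members and 6388 genes that differed between libraries became 0 and 460 with the common dispersion added and 3 and 2157 with whole-number counts, and 4 to 6 members and 2978 to 4765 genes without 1 library each. In whole-number counts scaled to depth, library 2, the highest by estimated counts, became the lowest for Gimap4, Gimap6 and Gimap7. Library 2 was also the lowest there for Trac, Cd3g, Cd3e and Tigit, which are not members, but not for Ets1. Gimap4 (chi-square 16.28 per degree of freedom) and Gimap6 (11.57) passed the threshold in both tables, while Gimap7 (0.67) no longer did. The cause was not tested. Depth limits the lowest members most: Gimap5 rests on 1448 to 1943 estimated counts per library.

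In log2 CPM without length correction, the difference was 0.30 for Gimap4 minus Gimap3, 0.68 for Gimap3 minus Gimap6, 0.89 for Gimap6 minus Gimap7, 0.87 for Gimap1 minus Gimap9 and -0.85 for Gimap5 minus Gimap8, the last reversed, Gimap8 having the longest effective length of the members. With protein-coding transcripts only, it was 0.49 for Gimap1 minus Gimap9, 1.49 for Gimap9 minus Gimap5 and -0.74 for Gimap5 minus Gimap8, and mean levels were 248.6 TPM for Gimap1 and 62.7 TPM for Gimap5. In an alternative added after the data were seen, the protein-coding share by counts in place of TPM was 95.5% for Gimap4, 99.9% for Gimap6, 95.9% for Gimap7 and 69.5% for Gimap5. Leaving out 1 library moved mean levels to 1412 to 1573 TPM for Gimap4 and 155.4 to 171.6 TPM for Gimap5, and reversed no difference between neighbours. No comparison between groups, paired or not, was possible because the libraries form 1 group. The only pairing was of neighbouring members within each library.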
